A study of Mus musculus with 3 samples.

Results

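Peaks of the transcription factor Ad4BP/SF-1 (NR5A1) whose centre lay in protein-coding exon sequence were taken from 2 lists of ChIP peaks, and the lists were kept apart. A peak belonged to the set when its centre was more than 1 kb from every protein-coding transcription start site (TSS) and inside a coding segment of a protein-coding transcript of GENCODE M21 on mm10. This held for 85 of 5721 peaks of vehicle-treated cells and for 64 of 4025 peaks of cAMP-treated cells. The rule used position and no score, motif or overlap. Base composition and part of the sequence content follow from a coding centre. Leydig cells, the androgen-producing cells of the testis, had been purified on a Percoll gradient from pooled testes of 9-week-old male ICR mice and cultured on collagen type I. Both groups came from such cells, with vehicle or cAMP as the difference, and 1 library was sequenced for each. A sample of input DNA was left aside. Because a condition was represented by 1 library, replicate error is unknown, and no test between vehicle and cAMP was made. Read totals are not part of the peak lists used here, so sequencing depth is unknown. The absence of a peak means that none was called and does not show that the factor was absent. Every peak has a MACS score, −10 log10 of its p-value. The score rises with depth and was therefore compared within a list, where it began at 50 (vehicle) and 50.01 (cAMP).

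Ad4BP/SF-1 is the orphan nuclear receptor that specifies steroidogenic cells and activates the genes of steroid synthesis. It binds DNA as a monomer at a nuclear receptor hexamer with a short 5′ extension, and its sites lie in promoters, introns and intergenic enhancers. A site in a coding exon has to be written with letters that also encode the protein, so its frame and strand can be read against the codons. Cyclic AMP is the second messenger through which luteinizing hormone stimulates Leydig cells. The consensus searched here had the 4 forms TCAAGGTC, TCAAGGCC, CCAAGGTC and CCAAGGCC, on both strands.

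The sequences that carry the coding copies are given first, because the results below refer to their strand, spacing and frame. They are from the mm10 reference, are written in the direction of the gene, and have each copy of the consensus in capitals. A copy that reads GACCTTGA, GGCCTTGA, GACCTTGG or GGCCTTGG in this direction lies on the strand opposite to the coding strand. *Jun* encodes a subunit of the AP-1 transcription factor and had the highest score of the set in both lists. Its copy lay at chr4:95051151-95051158, in the single coding exon, on the antisense strand. *Nrap* encodes a nebulin-related anchoring protein of muscle, and its copy lay at chr19:56342267-56342274 in exon 30 of 42. The copy of *Fam181b* lay at chr7:93081038-93081045, and like the other two it was inside a peak of each list.
Jun: aaacagagcatGACCTTGAacctggccgac
Nrap: ctggatatggtGACCTTGGtgcatgccaag
Fam181b: cgcggcggcgtGACCTTGAacgagcctgtg

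Several coding exons held more than 1 copy. *Osgin1*, which encodes an oxidative stress-induced growth inhibitor, held an antisense and a sense copy with 1 base between them at chr8:119443212-119443228. *Plekha1*, a phosphoinositide-binding protein gene, held 2 sense copies 13 bases apart within chr7:130910977-130911005. *Ccdc71* held 2 sense copies of the same form 40 bases apart within chr9:108463906-108463961. *Casz1*, which encodes a zinc finger transcription factor, held 3 sense copies of different form within chr4:148951637-148951872, in exon 21 of 21.
Osgin1: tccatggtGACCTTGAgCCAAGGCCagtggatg
Plekha1: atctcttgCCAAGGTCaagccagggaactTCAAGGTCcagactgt
Ccdc71: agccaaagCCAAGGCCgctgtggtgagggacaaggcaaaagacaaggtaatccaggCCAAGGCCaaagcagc
Casz1: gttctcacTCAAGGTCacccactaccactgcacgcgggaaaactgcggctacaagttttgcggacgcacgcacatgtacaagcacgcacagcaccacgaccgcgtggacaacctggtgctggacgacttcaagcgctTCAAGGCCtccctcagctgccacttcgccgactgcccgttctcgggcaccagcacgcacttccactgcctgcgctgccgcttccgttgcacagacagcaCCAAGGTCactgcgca

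The other sequences show a copy at a start codon, and copies in the intron beside the exon that held the peak centre. *Mbnl2*, which encodes a splicing regulator and was chosen after its values had been seen, held a copy at chr14:120325241-120325248 that began at base 3 of the coding sequence, so that the last base of the start codon was its first base. *Hsd17b3* encodes the testicular 17β-hydroxysteroid dehydrogenase that makes testosterone from androstenedione. Its copy, at chr13:64064406-64064413, lay in the intron beside a coding segment of 35 bp. *Gipc1* encodes a PDZ-domain adaptor of membrane trafficking, and its copy at chr8:83662453-83662460 was also intronic.
Mbnl2: gttctcatcatGGCCTTGAacgttgccccc
Hsd17b3: tagttgctttgTCAAGGTCtaaccttggcc
Gipc1: cccactgggatGACCTTGAgctcttaagaa

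**Figure D1:**
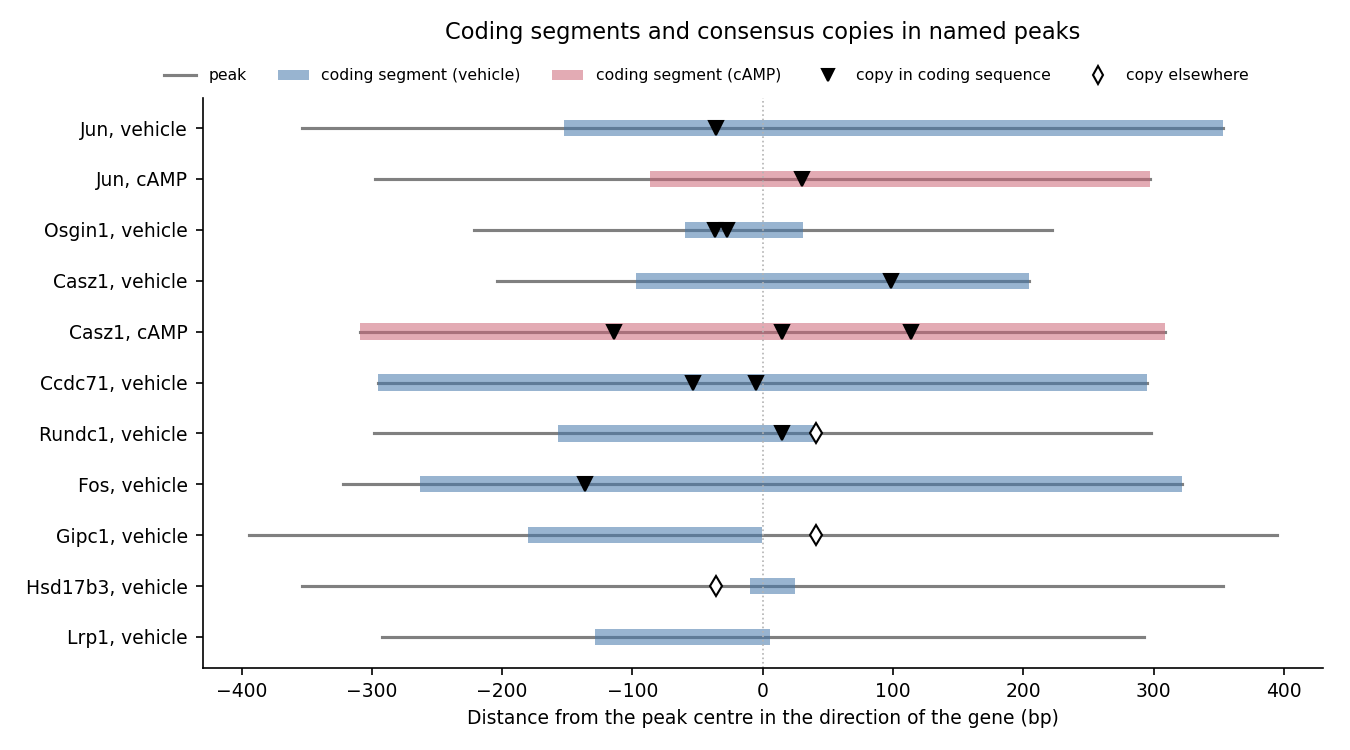
Horizontal axis: distance from the peak centre in bp, in the direction of the gene. Each grey line is 1 peak, the coloured bar is the part of it in the coding segment under its centre, and the symbols mark consensus copies wholly in coding sequence (filled) or elsewhere (open). The *Casz1* peak of the cAMP list spans 3 coding copies and the vehicle peak 1, and in *Hsd17b3* and *Gipc1* the copy lies outside the coding segment.

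Coding exons held 1.49% of the vehicle peaks (95% exact Clopper-Pearson interval 1.19% to 1.83%) and 1.59% of the cAMP peaks (1.23% to 2.03%). Here and below the intervals cover counting error only, because peaks of 1 library are not replicates. Coding sequence more than 1 kb from a TSS made up 1.11% of the genome without unknown bases. That gave 2.89 vehicle peak centres per Mb of this coding sequence, beside 2.16 per Mb of the whole genome, and 2.18 cAMP peak centres beside 1.52. This order turned with the score. Among the 1521 vehicle peaks scoring at least 100, coding exons held 0.92% (0.504% to 1.54%), below the 1.11% of the genome. They held 0.925% (0.518% to 1.52%) of the 1622 cAMP peaks scoring at least 75 and 0.755% (0.304% to 1.55%) of the 927 scoring at least 100. The 3 intervals include 1.11%. The remaining vehicle peaks were 2853 in introns, 2058 in intergenic sequence, 614 in promoters (centre within 1 kb of a TSS) and 111 in untranslated exons. The cAMP list had 1973, 1569, 350 and 69.

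Each coding-exon peak lay in a different gene of its list, and the lists together held 130 genes, 19 of them in both. The coding segment under the centre had a median length of 194 bp for vehicle (34 to 5511 bp) and 183.5 bp for cAMP (69 to 17106 bp, the longest in *Ttn*, the gene of the muscle protein titin, named after its values had been seen). Weighted by their bases, all coding segments more than 1 kb from a TSS had a median of 179 bp. Most centres were in internal coding segments, 59 of 85 for vehicle (69.4%) and 50 of 64 for cAMP (78.1%), beside 74.5% of the coding bases of the annotation. Last coding segments held 16 and 8 centres, first coding segments 3 and 1, and genes with a single coding segment 7 and 5. The peaks were mostly wider than the exons. Their median width was 501 bp for vehicle and 459.5 bp for cAMP, a median of 45.1% and 43.5% of the peak was coding, and 10 and 8 peaks were wholly coding. The median distance to the nearest TSS was 7664 bp and 9650.5 bp, and for 30 vehicle peaks and 22 cAMP peaks the nearest TSS belonged to a gene other than the one whose exon held the centre.

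The median score of the coding-exon peaks was 62.1 in the vehicle list (quartiles 55.1 and 85.4), beside 71.2 for intergenic, 71.9 for untranslated exon, 72.2 for intronic and 79.1 for promoter peaks. In the cAMP list the median was 63.3 (53.9 and 73.6), close to 64.2 for untranslated exon and 65.7 for intergenic peaks, and beside 69.6 for intronic and 73.0 for promoter peaks. The interval of the vehicle median, 58.4 to 73.1, includes the intergenic, untranslated exon and intronic medians and not that of promoters. The interval of the cAMP median, 54.5 to 68.2, includes the untranslated exon and intergenic medians and not the other medians. A score of at least 100 was reached by 14 of 85 vehicle peaks (16.5%, 9.31% to 26.1%), whereas 26.7% of the other vehicle peaks reached it, a difference of −10.3 percentage points (95% Newcombe interval −16.8 to −0.901). In the cAMP list 7 of 64 reached it (10.9%, 4.51% to 21.2%), beside 23.2% of the other peaks, a difference of −12.3 points (−18.0 to −2.24). Coding-exon peaks were richer in G and C than intronic peaks, with a median GC content of 55.9% against 47.5% for vehicle and 53.0% against 46.8% for cAMP. The part of base composition in the scores was not tested.

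**Figure D2:**
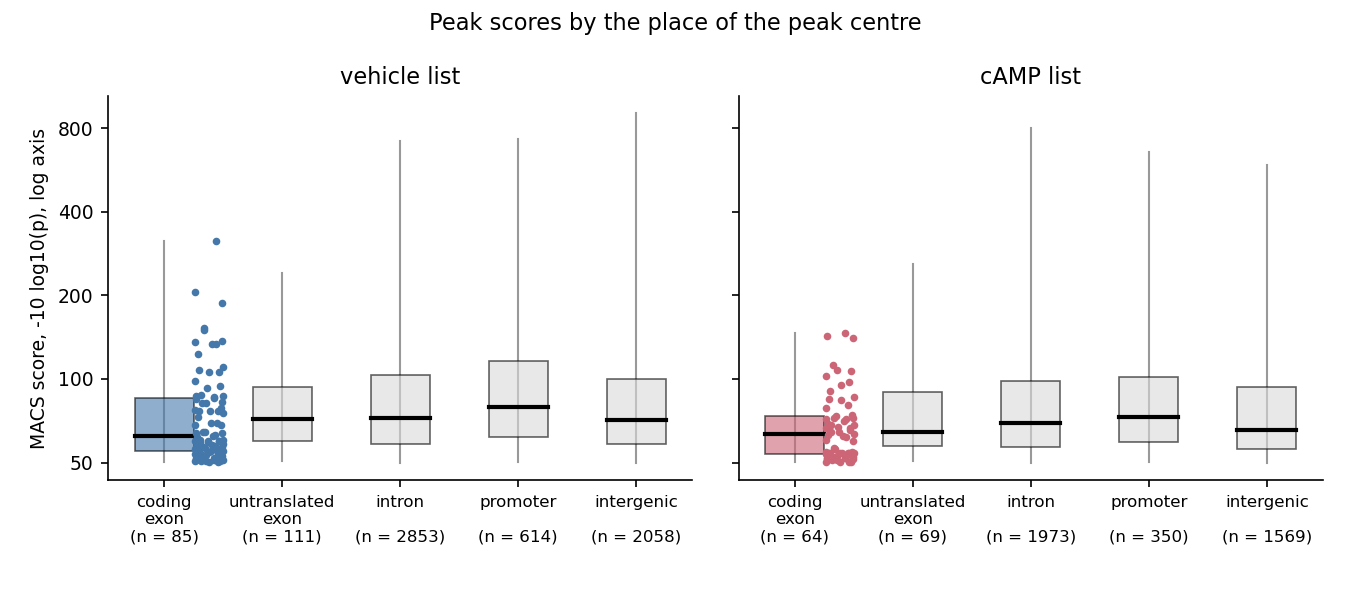
Vertical axis: MACS score on a log axis; horizontal axis: place of the peak centre, with the number of peaks. Boxes span the quartiles, the thick line is the median, the thin line runs from the lowest to the highest score, and the points are the single coding-exon peaks. The coding-exon medians, 62.1 and 63.3, are the lowest of the 5 places in each list. Their intervals, 58.4 to 73.1 and 54.5 to 68.2, include some of the other medians.

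The highest scores of the set were those of *Jun*. The vehicle peak, chr4:95050765-95051472, scored 315, higher than 98.5% of the vehicle peaks, and the cAMP peak, chr4:95050887-95051482, scored 147, higher than 91.0% of the cAMP peaks. In the vehicle list *Gipc1* (205), *Nrap* (188), *Ccdc162* (152) and *Rundc1* (149.99) followed. The other 5 of the 10 highest were *Osgin1* (137), *Ccs*, the copper chaperone of superoxide dismutase (136), *Fam181b* (134), *Cfap157*, a cilia and flagella protein gene (133), and *Lrp1*, the gene of an endocytic lipoprotein receptor (123). Of these 10, 8 overlapped a cAMP peak, and *Rundc1* and *Cfap157* did not, with the nearest cAMP peak 206276 bp and 170291 bp away. *Cfap157* and *Lrp1* held no copy of the consensus anywhere in the peak.

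In the cAMP list *Jun* was followed by *Fndc7*, a fibronectin type III domain gene (143), *Ccs* (141), *Ccdc162* (112), *Macrod1*, which encodes an ADP-ribosyl hydrolase (107.5), and *Casz1* (107). *Asic4*, of the acid-sensing ion channel family (102.12), *Fam3b*, the gene of a secreted cytokine-like protein (97.5), and *Acss1*, which encodes the mitochondrial enzyme that makes acetyl-CoA from acetate (95.2), came next. Of these 9 peaks, 8 overlapped a vehicle peak and *Acss1* did not. All 9 held at least 1 copy of the consensus, which lay wholly in coding sequence in *Jun*, *Fndc7* and *Casz1*. *Jun*, *Ccs* and *Ccdc162* were among the 10 highest of both lists.

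A copy of the consensus was present in 59 of 85 vehicle coding-exon peaks (69.4%, 58.5% to 79.0%), against a background of 80.4% of all vehicle peaks. In the cAMP list it was present in 45 of 64 (70.3%, 57.6% to 81.1%), against 77.1% of all cAMP peaks. The low share was not particular to coding exons, since cAMP intergenic peaks held a copy in 69.0% and cAMP peaks in untranslated exons in 71.0%. In the vehicle list these places had 75.8% and 77.5%. Intronic peaks held it more often than coding-exon peaks in each list. The difference, coding exon minus intron, was −14.4 percentage points for vehicle (−24.9 to −5.47) and −12.0 points for cAMP (−24.2 to −2.11). Against all other peaks of the list it was −11.1 points (−21.6 to −2.30) and −6.89 points (−19.0 to 2.98), and the second of these intervals included 0. Among the 34 vehicle members that were at least 50% coding, an alternative chosen after seeing the data, the share was 79.4% (62.1% to 91.3%), near that of all vehicle peaks, with an interval that also holds the 69.4% of all members. Among the 26 such cAMP members it was 65.4% (44.3% to 82.8%), further below that of all cAMP peaks. Scores moved with these shares. Among peaks scoring from 50 to below 75, the consensus was in 34 of 53 vehicle coding-exon peaks (64.2%, 49.8% to 76.9%), beside 76.0% of the other peaks of that score class. The same cAMP class had 30 of 49 (61.2%, 46.2% to 74.8%), beside 68.6%. From 75 to below 100 the vehicle shares were 83.3% (15 of 18) and 83.1%, and at a score of at least 100 they were 71.4% (10 of 14) and 87.7%. The order turned for cAMP, where all 15 coding-exon peaks with a score of at least 75 held a copy (78.2% to 100%). Beside them stood 86.8% of the other peaks from 75 to below 100 and 91.96% of those at 100 or more, both inside that interval.

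**Figure D3:**
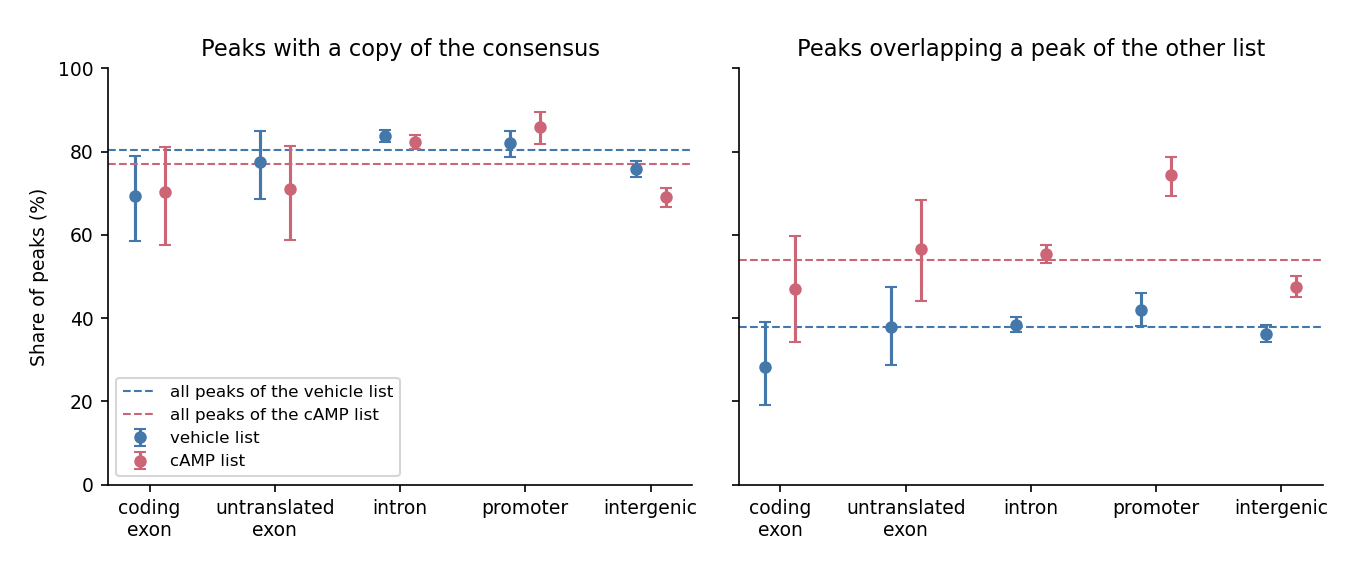
Vertical axes: share of peaks in percent, with exact 95% intervals for counting error, by place of the peak centre. The left panel counts peaks with a copy of the consensus, the right panel peaks that share at least 1 bp with a peak of the other list, and dashed lines give all peaks of a list. Coding exons lie below the line of their list in each panel, at 69.4% and 70.3% on the left and 28.2% and 46.9% on the right.

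The consensus was nevertheless far more frequent at these centres than in coding exons at large. In windows of 200 bp it was found at the centre of 53 vehicle peaks (62.4%, 51.2% to 72.6%) and 37 cAMP peaks (57.8%, 44.8% to 70.1%) of the set. Windows of the same length centred on each of 168082 coding segments of the annotation held it in 4.26%, and those of all peaks held it in 73.1% and 70.7%. Against the other peaks of the list the difference was −10.9 points (−21.6 to −1.25) and −13.1 points (−25.4 to −1.70). The copy nearest to the centre was at a median distance of 33.5 bp for vehicle and 45 bp for cAMP, beside 36.0 bp over all peaks of each list that held a copy. In *Vsig8*, which was chosen after its values had been seen, the copy was centred on the peak. The windows were also searched for sites of other factors. The cAMP response element TGACGTCA was in none of the 85 and 64 windows, which allows a share of up to 4.25% and 5.60%, and it was in 0.277% of the coding windows and 0.227% and 0.199% of the windows of all peaks. The AP-1 site TGANTCA was in 5 vehicle windows (5.88%, 1.94% to 13.2%) and 6 cAMP windows (9.38%, 3.52% to 19.3%), beside 4.66% of the coding windows and 10.8% and 13.0% of the windows of all peaks. The GATA site TGATAA was in 6 (7.06%, 2.63% to 14.7%) and 1 (1.56%, 0.0396% to 8.40%), beside 7.64% of the coding windows and 7.64% and 6.93% of those of all peaks. The interval of each of these shares includes both backgrounds. All 3 were searched on both strands. A match is a stretch of letters and does not show that a factor was bound.

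The copies lay in the coding part of the peaks more often than in the rest. The vehicle peaks held 70 copies, of which 51 lay wholly in coding sequence, 15 in introns, 3 across an exon edge and 1 in an untranslated exon. The cAMP peaks held 54, with 32, 18, 3 and 1. Coding sequence made up 50.8% of the bases of the vehicle peaks and 48.2% of those of the cAMP peaks, and had 2.35 and 2.09 copies per kb, beside 0.759 and 1.15 per kb in the other bases. By the rule the centre of each peak is coding, and copies gather at centres, so the coding part is favoured by construction. Over all coding sequence more than 1 kb from a TSS there were 0.251 copies per kb. Per peak, the consensus was wholly in coding sequence in 44 of 85 vehicle peaks (51.8%, 40.7% to 62.7%) and in 26 of 64 cAMP peaks (40.6%, 28.5% to 53.6%).

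Coding-exon peaks whose only copies lay outside coding sequence numbered 15 for vehicle and 19 for cAMP. Their coding segments were shorter, with a median of 128 bp and 142 bp, against 223.5 bp and 217.5 bp where a copy was coding. Their median scores were 82.7 and 74.0, against 60.9 and 66.0. *Hsd17b3*, *Gipc1*, *Ccs*, *Ccdc162*, *Macrod1* and *Fam3b* were among them, and in these peaks the exon under the centre was not where the consensus lay. The 26 vehicle and 19 cAMP peaks without any copy had median scores of 58.1 and 54.2.

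The form TCAAGGTC was more frequent among the coding copies than in coding sequence at large. TCAAGGTC made up 22 of the 51 coding copies in vehicle peaks (43.1%, 29.3% to 57.8%) and 12 of the 32 in cAMP peaks (37.5%, 21.1% to 56.3%). It made up 42.6% of the 6017 copies in all vehicle peaks and 45.1% of the 4049 in all cAMP peaks. Among the 7188 copies in all coding sequence more than 1 kb from a TSS, 18.4% (17.5% to 19.3%) had this form. The intervals of both lists lie above that share. CCAAGGCC went the other way, with 13.7% (5.70% to 26.3%) and 15.6% (5.28% to 32.8%) of the coding copies beside 36.5% in all coding sequence. For the remaining forms the intervals include the share in all coding sequence. TCAAGGCC made up 25.5% and 21.9% of the coding copies beside 23.2%, and CCAAGGTC 17.6% and 25% beside 21.9%.

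The coding copies lay on both strands of the gene and were unevenly spread over the codon positions. In the vehicle list 25 coding copies were sense and 26 antisense, and in the cAMP list 16 and 16. Sense copies began mostly at codon position 2, 18 of 25 for vehicle (72.0%, 50.6% to 87.9%) and 9 of 16 for cAMP (56.2%, 29.9% to 80.2%), beside 64.7% of the 4018 sense copies in all coding sequence. In this frame the AAG in the middle of the consensus is a whole codon, as in the 3 copies of *Casz1* and both copies of *Ccdc71*. Antisense copies began mostly at codon position 3, 19 of 26 (73.1%, 52.2% to 88.4%) and 13 of 16 (81.2%, 54.4% to 96.0%), beside 52.6% (50.8% to 54.3%) of the 3170 antisense copies in all coding sequence. *Jun*, *Nrap* and the antisense copy of *Osgin1* had this frame, and the copies of *Fam181b* and *Fos* began at codon position 1. None of the antisense copies began at codon position 2, 0 of 26 and 0 of 16, which allows up to 13.2% and 20.6%. In that frame a copy ending in TTGA puts TGA, a stop codon, in the reading frame. In all coding sequence 132 antisense copies (4.16%) began there, and each of the 132 ended in TTGG.

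**Figure D4:**
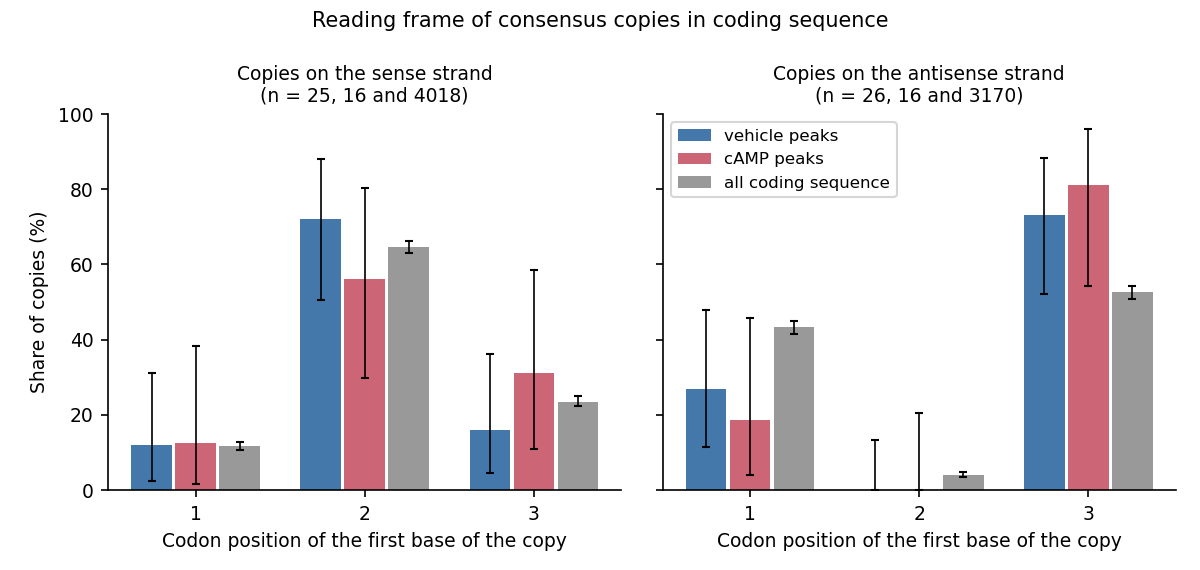
Vertical axis: share of copies in percent, with exact 95% intervals for counting error; horizontal axis: codon position of the first base of the copy in the direction of the gene. Bars are coding copies in vehicle peaks, in cAMP peaks and in all coding sequence more than 1 kb from a TSS, on the sense strand (left) and the antisense strand (right). Codon position 2 leads on the sense strand and codon position 3 on the antisense strand, and antisense copies at position 2 are absent from the peaks and make up 4.16% of the annotation's copies.

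The share of coding-exon peaks overlapped in the other list lay below that of all peaks, by less than the counting error when all members and scores were used. Of the 85 vehicle peaks, 24 overlapped a cAMP peak by 1 bp or more (28.2%, 19.001% to 39.0%), against a background of 37.9% of all vehicle peaks. Of the 64 cAMP peaks, 30 overlapped a vehicle peak by 1 bp or more (46.9%, 34.3% to 59.8%), against 53.8% of all cAMP peaks. Neither difference to the other peaks of the list was larger than its counting error, at −9.79 percentage points (−18.4 to 0.637) and −7.08 points (−18.9 to 5.08). With the vehicle list shortened to the 4025 highest scores, 19 of 44 coding-exon peaks (43.2%) were overlapped, beside 46.5% of all. With scores of at least 75 in both lists the vehicle share was 18.8% (6 of 32, 7.21% to 36.4%), beside 37.3% of all, which lies outside the interval. The cAMP share at that score was 60% (9 of 15), beside 61.4%. Among members at least 50% coding it was 17.6% for vehicle (6.76% to 34.5%), an interval below the 37.9% of all vehicle peaks, and 34.6% for cAMP (17.2% to 55.7%). With scores of at least 100 in both lists the cAMP order turned, to 71.4% (5 of 7, 29.0% to 96.3%) beside 63.3%. The vehicle order did not, at 28.6% (4 of 14) beside 38.6%. The overlapped vehicle members had a median score of 86.0 and the others 59.6, and in the cAMP list the medians were 70.2 and 55.2. In the score classes that follow, the other list was used whole, whatever its scores. Among vehicle peaks scoring from 50 to below 75, 7 of 53 coding-exon peaks were overlapped (13.2%, 5.48% to 25.3%), beside 22.4% of the other peaks of that class. At a score of at least 100 the shares were 64.3% (9 of 14, 35.1% to 87.2%) and 68.0%. In the cAMP list the class from 50 to below 75 had 34.7% (17 of 49, 21.7% to 49.6%) beside 37.4%. In other classes the coding-exon share was the higher. It was 44.4% (8 of 18, 21.5% to 69.2%) beside 39.7% for vehicle peaks from 75 to below 100, and 75% (6 of 8, 34.9% to 96.8%) beside 64.5% for cAMP peaks of that class. All 7 cAMP coding-exon peaks at 100 or more were overlapped (59.0% to 100%), beside 88.5%.

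The partner of a coding-exon peak was not always a coding-exon peak. In 19 loci the centre was coding in both lists, with centres 4 to 213 bp apart (median 34.0 bp). The other 5 overlapped vehicle peaks had their cAMP partner centred in an intron (4) or an untranslated exon (1). The other 11 overlapped cAMP peaks had a vehicle partner centred in an intron (8) or an untranslated exon (3), at a median centre distance of 112 bp. The *Hsd17b3* peak is of this kind. It scored 94.4 in vehicle (chr13:64064020-64064727, 4.9% of it coding), and its cAMP partner was intronic and scored 52.2. For *Lrp1* the vehicle score was 123 and the intronic cAMP partner scored 170, and for *Fndc7* the cAMP score was 143 and the intronic vehicle partner scored 200 (199.74). Of the peaks without a partner, 4 of 61 for vehicle and 10 of 34 for cAMP had a peak of the other list within 10 kb. The same share over all peaks without a partner was not computed. The vehicle list, searched for the cAMP peaks, was also the longer, so these counts do not set coding-exon peaks or a treatment apart.

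The 19 shared loci were placed by the percentage of their own list that scored lower. Both lists begin at a score of about 50 but hold 5721 and 4025 peaks, so this standing depends on list length as well as on the locus, and their parts cannot be told apart. It was higher for vehicle in 12 loci and for cAMP in 7. *Jun*, *Ccdc162*, *Fam3b*, *Ccs*, *Tg*, *Cep44* and *Arhgef17* stood within 10 percentage points of each other in the lists. *Gipc1* scored higher than 95.1% of the vehicle peaks and higher than 39.2% of the cAMP peaks. *6820408C15Rik*, with an antisense and a sense copy in its coding exon in both lists, stood at 65.2% and 11%. The widest gap the other way was that of *Casz1*, at 1.4% of the vehicle peaks (score 50.5) and 80.1% of the cAMP peaks (score 107). Its centre lay 213 bp further into the exon in cAMP, and the peak there spanned the 3 copies shown above, whereas the vehicle peak spanned 1 of them. *Poln*, a DNA polymerase gene, stood at 14% and 67.3%, and *Atg2a*, an autophagy gene, at 18.3% and 67.6%. *Tg*, *Cep44*, *Arhgef17*, *Poln* and *Atg2a* were chosen after their values had been seen. With 1 library for each condition these gaps have no replicate error to be set against.

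**Figure D5:**
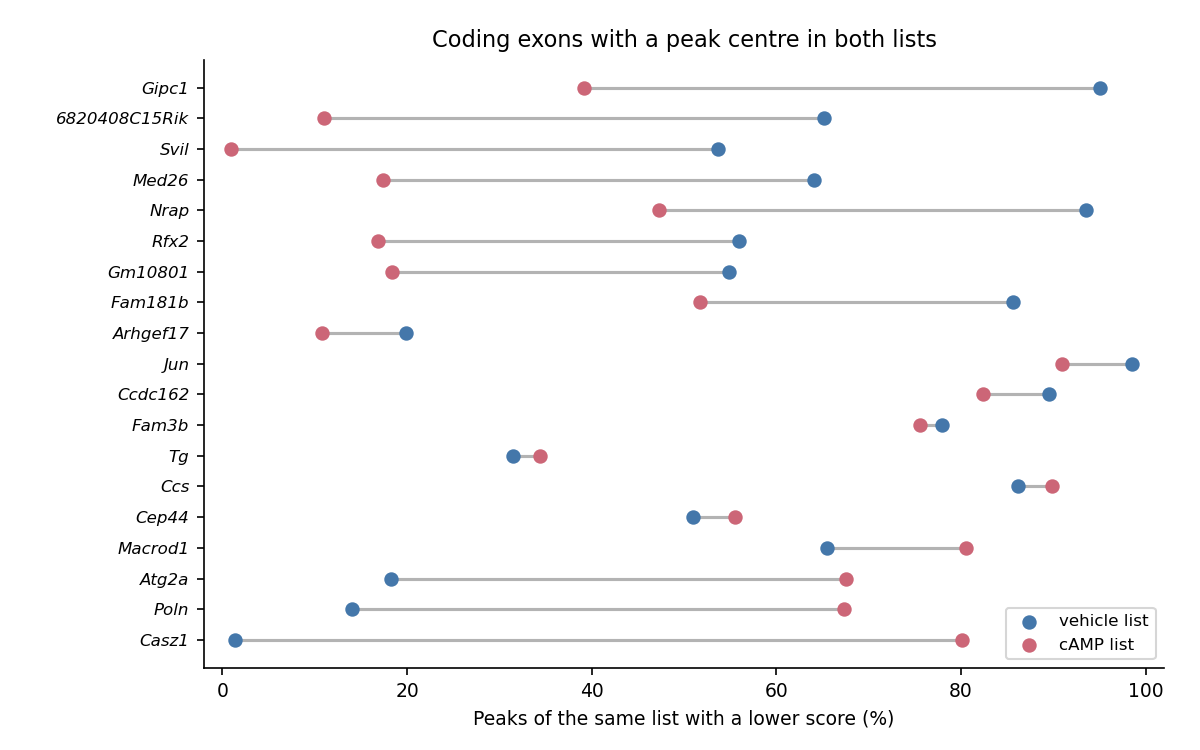
Horizontal axis: percentage of the peaks of the same list that score lower; each row is 1 of the 19 coding exons with a peak centre in both lists, with the vehicle peak in blue and the cAMP peak in red. *Gipc1* stands at 95.1% and 39.2%, *Casz1* at 1.4% and 80.1%, and *Jun* is high in both.

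The coding-exon peaks that overlapped nothing in the other list were led in the vehicle list by *Rundc1* (149.99), *Cfap157* (133), *Ccdc71* (107.72), *Srcin1*, the gene of an inhibitor of SRC kinase (106), and *Dnmbp*, which encodes a dynamin-binding activator of Cdc42 (106). The *Dnmbp* peak lay 324 bp from a cAMP peak. *Rundc1* and *Ccdc71* held coding copies, 1 and 2, and the other 3 had none. In the cAMP list the leaders were *Acss1* (95.2), *Sema6c*, a semaphorin gene (78.4), *Xpc*, which encodes the DNA damage sensor of nucleotide excision repair (74.0), *Fank1* (73.4) and *Sf1* (72.1). *Sf1* here is the gene of splicing factor 1 and is not that of Ad4BP/SF-1. *Sema6c* held a coding copy 5.5 bp from the centre, *Acss1*, *Xpc* and *Sf1* held an intronic copy, and *Fank1* held none.

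Members with 2 or more coding copies numbered 7 for vehicle and 5 for cAMP. The vehicle peaks were *Osgin1* (137), *Ccdc71* (107.72), *6820408C15Rik* (86.7), *Soga1* (62.1), *Gm340* (55.8), *Plekha1* (54.8) and *Ctf2*, a cardiotrophin gene (54.8). The cAMP peaks were *Casz1* (107), *Ptpn13*, a tyrosine phosphatase gene (65.6), *Syn1*, the synapsin I gene (54.0), *Tmc3* (53.7) and *6820408C15Rik* (52.3). *Osgin1*, *Ccdc71* and *Casz1* scored above 100. The *Osgin1* peak overlapped an intronic cAMP peak that scored 66.1 with its centre 88 bp away, and *Ccdc71*, *Soga1*, *Gm340*, *Plekha1* and *Ctf2* had no overlap.

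Steroid and cholesterol metabolism had the highest share of genes with a coding-exon peak among the lists used for vehicle. Of 61 listed genes with coding sequence more than 1 kb from a TSS, 4 had one for vehicle (6.56%) and 0 for cAMP, beside 0.434% and 0.327% of all 19567 such genes. They were *Hsd17b3* and *Lrp1*, described above, *Scap* (score 62.7), whose product escorts the sterol regulatory element-binding proteins to the Golgi, and *Mbtps1* (55.3), the gene of the site-1 protease that cleaves them there. None of the 4 had a consensus copy in its coding exon. *Scap* and *Hsd17b3* had an intronic copy in the peak, and *Lrp1* and *Mbtps1* had none. The vehicle peaks of *Hsd17b3* and *Lrp1* overlapped a cAMP peak with its centre in the intron, 81 and 44 bp away, which is not counted here. Those of *Scap* and *Mbtps1* overlapped no cAMP peak. The list was drawn up with earlier results of these data known, and longer genes offer more coding sequence, so the share is a description. In *Scap* 4 other vehicle peaks had their centre in the gene, the highest an intronic peak that scored 190 (189.64), and in *Mbtps1* 1 did (67.1).

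Among 55 nuclear receptor genes, *Rora*, which encodes a retinoid-related orphan receptor, had a cAMP coding-exon peak (54.6) without a consensus copy and no vehicle one. Its gene had 2 other cAMP peaks, the higher intronic with a score of 139. In a list of 45 genes headed gonadal transcription factors, the only hits were AP-1 genes, 4.44% of the list for vehicle and 2.22% for cAMP. *Jun* had a coding-exon peak in both peak lists. *Fos*, the gene of the AP-1 partner of *Jun*, had one in the vehicle list (92.6, chr12:85475758-85476402), in exon 4 of 4. The copy in *Fos* was 136.5 bp from the centre, and the nearest cAMP peak was 62578 bp away. At the rate of all genes, 0.434% for vehicle and 0.327% for cAMP, lists of this size would hold few hits or none, so a count of 0 does not set a list apart. No coding-exon peak was found in 75 genes of Leydig cell identity and cAMP signalling, or in 51 genes of glycolysis and acetyl-CoA, which did not include *Acss1*. None was found in 91 listed myosin, dynein and kinesin genes, or in 434 transporter and 390 Zfp zinc finger genes. The 91 did not include *Dync1i1*, a dynein gene with a vehicle coding-exon peak (59.4), named after its values had been seen. *Itgb4*, an integrin gene chosen after its values had been seen, was the single hit among 118 genes of collagens, laminins and matrix (87.3, vehicle).

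Most coding-exon peaks were the single peak of their gene. In the vehicle list 62 of 85 host genes had no other vehicle peak centred in the gene, and in the cAMP list 45 of 64. Of the 23 and 19 host genes with another peak, 19 and 11 had one that scored higher than the coding-exon peak. The coding-exon peak was set against the highest of the other peaks, which favours the others. The same counts were not made for peaks in other places, so these values describe the members only. The most was 4 other peaks, in *Scap*, *Macrod1*, *Dync1i1* (named after its values had been seen) and *Arhgef17* of the vehicle list. Host genes with another peak were longer, with a median of 83.0 kb against 22.4 kb for vehicle and 75.04 kb against 36.3 kb for cAMP.

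*Gm10801* had a peak in both lists with centres 4 bp apart and no copy of the consensus, and 46.2% and 44.5% of the peak was repeat-masked, the highest shares of the set. It has no coding segment at this place in RefSeq, nor have *1700014D04Rik* and *Gm10604* of the vehicle list and *Fam129a* and *Gm5089* of the cAMP list. These were chosen after their values had been seen, and 82 of 85 and 61 of 64 members had a RefSeq coding segment under the centre.

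The members nearest to the 1 kb limit were *Mab21l2* (1073 bp from a TSS, score 68.3) and *Jun* (1104 bp) for vehicle, and *Jun* (1038 bp) and *Fam181b* (1206 bp, 68.9) for cAMP. The nearest coding centres on the other side of the limit were those of *Riox1* (783 bp, 103) and *Plin5*, a lipid droplet protein gene (868 bp, 101), for vehicle, and of *Gm10800* (516 bp, 113) and *Olfr48* (530 bp, 59.5) for cAMP. In all, 28 vehicle and 18 cAMP peaks had a coding centre within 1 kb of a TSS and were left out by the rule, with median scores of 78.2 and 64.0.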

How the data were processed

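Bowtie (0.12.8 in the submitters' processing notes, beside FastQC 0.11.5) was used by the authors to align 1 library per condition to mm10 with at most 3 mismatches. Uniquely mapped reads went into MACS. Whether MACS used the input DNA as control is not given in the sources used here. The deposited peak lists used here give each peak's position and its MACS score, −10 log10 of its p-value. Reads were not analysed here, so depth is unknown. Reads with several positions were dropped, which can remove peaks in repeated or duplicated exons.

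Peak centres were placed on GENCODE M21 with numpy 2.4.6 and pandas 2.3.3 under Python 3.11.15, and bedtools 2.31.1 found the same 85 and 64 members. Exact and Newcombe intervals at the 95% level used scipy 1.17.1, and plots matplotlib 3.10.9. Coordinates count from 1. All coding sequence means 1 principal transcript per gene. Functions were tested on simulated data. The members, the gene lists and the rules were chosen with earlier results of these data known. Genes named are those of the 10 highest-scoring members of each list, the 5 highest without an overlap, members of the steroid, nuclear receptor, Leydig cell, glycolysis and gonadal factor lists, the 2 peaks nearest the 1 kb limit on each side, and members with 2 or more coding copies. Others are marked as chosen after their values had been seen. The values of 1 gene that this rule names are not reported here.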

Additional observations from a re-analysis of the deposited data

How the results depend on the processing

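Of 84 alternative values, 59 stayed within the spread set for them and 25 moved. Counting every peak beyond 1 kb of a TSS with at least 1 bp of coding sequence gave 349 vehicle peaks (6.1%) and 210 cAMP peaks (5.22%), and asking for at least 50% coding gave 39 (0.682%) and 29 (0.72%). A score of at least 75 left 32 vehicle peaks (1.2% of the 2666 vehicle peaks with that score) and 15 cAMP peaks (0.925% of 1622), and at least 100 left 14 (0.92% of 1521) and 7 (0.755% of 927). The last 3 shares lie below the 1.11% of the genome that is coding, whereas those of the whole lists lie above it. With a score of at least 75 in both lists the overlapped share was 18.8% in vehicle (37.3% of all peaks) and 60% in cAMP (61.4%), and with at least 100 it was 71.4% in cAMP (63.3%). It was 43.2% in vehicle with lists of equal length, where all vehicle peaks stood at 46.5%, and 32.8% in cAMP with centres within 100 bp. The consensus was in 100% of cAMP members at a score of at least 75 and in 100% at 100, above the other peaks of those scores and not below them as in the whole list. The intervals, 78.2% to 100% and 59.0% to 100%, include the shares of those other peaks. Among members at least 50% coding, an alternative chosen after seeing the data, the vehicle shares were 17.6% overlapped (37.9% of all vehicle peaks) and 79.4% with the consensus (80.4% of all vehicle peaks), and the cAMP shares were 34.6% and 65.4%, with a median score of 54.2. The causes of these moves were not tested, beyond the smaller number of peaks that each stricter rule leaves. No paired analysis was possible because each condition has 1 library. Unknown depth limits each statement on absence.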
